A study of Homo sapiens with 6 samples.

Results

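Genomic imprinting leaves a gene active mainly from the copy inherited from the mother or from the father, through DNA methylation that is laid down in the egg or sperm and kept through later cell divisions. Many imprinted genes lie in clusters under a shared control region, and many of them act on growth, placental function or metabolism. PEG3 encodes a large zinc finger protein that binds DNA, and it is expressed from the paternal copy. It lies near the end of the long arm of chromosome 19, among many zinc finger genes that are not imprinted, together with ZIM2, which shares exons with it, and MIMT1, a long noncoding RNA read from the opposite strand.

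The 10 genes described here are PEG3, ZIM2, MIMT1, PEG10, SGCE, MEST, PLAGL1, NDN, GRB10 and IGF2, each with 1 of the 22279 transcript rows of the count table. PEG3 was selected on its fold change between shRB and shCON, higher while genes around it were lower, and the others were chosen as imprinted genes with the fold changes of the same comparison known. The differences between groups in these 10 genes are therefore a description and carry no p-values. A call given for any of them only places it against the threshold used for all rows and is no evidence of a difference. The gene lists further below were also chosen with earlier results of these data known. Adjusted p-values of list genes are given with that limit and are not independent evidence. RNA came from LNCaP, an established prostate cancer line with luminal epithelial features and an active androgen receptor. The shRB group of 3 libraries carried a short hairpin RNA against RB, and the shCON group of 3 libraries a control hairpin. Both groups had 72 h of CDT, an abbreviation of the labels, which file it under the arrest of the cell cycle; the series' text speaks of a hormone deficient state. The labels give 1 hairpin name per group and do not say whether the libraries came from separate cultures or clones. An effect of RB loss and one of the hairpin or of the cell population cannot be told apart, and the errors given cover only the spread between these libraries, which may be technical. The counts do not separate the maternal from the paternal copy, so they give the total RNA of a gene.

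Library totals were 6115310 to 20091488 counts in shCON and 9780579 to 10898768 in shRB. RB1, the targeted gene, which itself holds an imprinted CpG island in an intron, stood at 56.5, 52.7 and 54.7 CPM (the count scaled to library depth, with TMM factors) in the shCON libraries and at 5.82, 3.82 and 5.41 CPM in the shRB libraries. The groups did not overlap, and the log2 fold change was −3.43 ± 0.14 (SE; edgeR quasi-likelihood test, adjusted p = 2.396e-09). All 12 luminal prostate markers listed had counts, and 4 were called higher and 2 lower in shRB. Over all rows tested, 12.8% were called higher and 12.5% lower. The summed level of the 12 markers was 5873 to 6183 CPM in shCON and 5533 to 5950 CPM in shRB. Of 12 stromal markers, 9 had a row, and COL1A2, COL6A3 and PDGFRA were at 0 in every library. The stromal sum was 42.0 to 50.1 CPM in shCON and 22.0 to 26.0 CPM in shRB, and 1 of the 3 stromal markers tested was called lower, VIM. Most of that sum was VIM and COL1A1. Without them it was 2.26 to 3.71 CPM in shCON and 1.91 to 2.23 CPM in shRB. Of the leukocyte markers, PTPRC, CD3E and MS4A1 were among those at 0 in every library, as was HBB, a red cell gene on the same list. The 1 tested, CD68, did not pass. The sum of this list was 6.52 to 7.65 CPM in shCON and 5.46 to 5.51 CPM in shRB. Most of it was CD68, which averaged 5.92 CPM in shCON and 5.07 CPM in shRB. The part of these markers in the values below was not tested. In bulk RNA, fewer cells carrying a transcript and less of it per cell cannot be told apart.

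Of the 10 imprinted genes, 7 had enough counts for the test across all genes, and each of the 7 reached the minimum level in all 3 libraries of both groups. PEG3, ZIM2, PEG10 and NDN were called higher in shRB, MEST was called lower, and MIMT1 and GRB10 did not pass. Across all 11712 rows tested by edgeR at an adjusted p under 0.05, 12.8% were called higher and 12.5% lower, 25.3% in all. The median log2 fold change was 0.41 over the 7 genes and −0.01 over all rows tested. The 7 genes were chosen with this comparison known, so nothing is read from their count. SGCE, PLAGL1 and IGF2 were left out of the test, with at most 13 counts in any library.

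**Figure D1:**
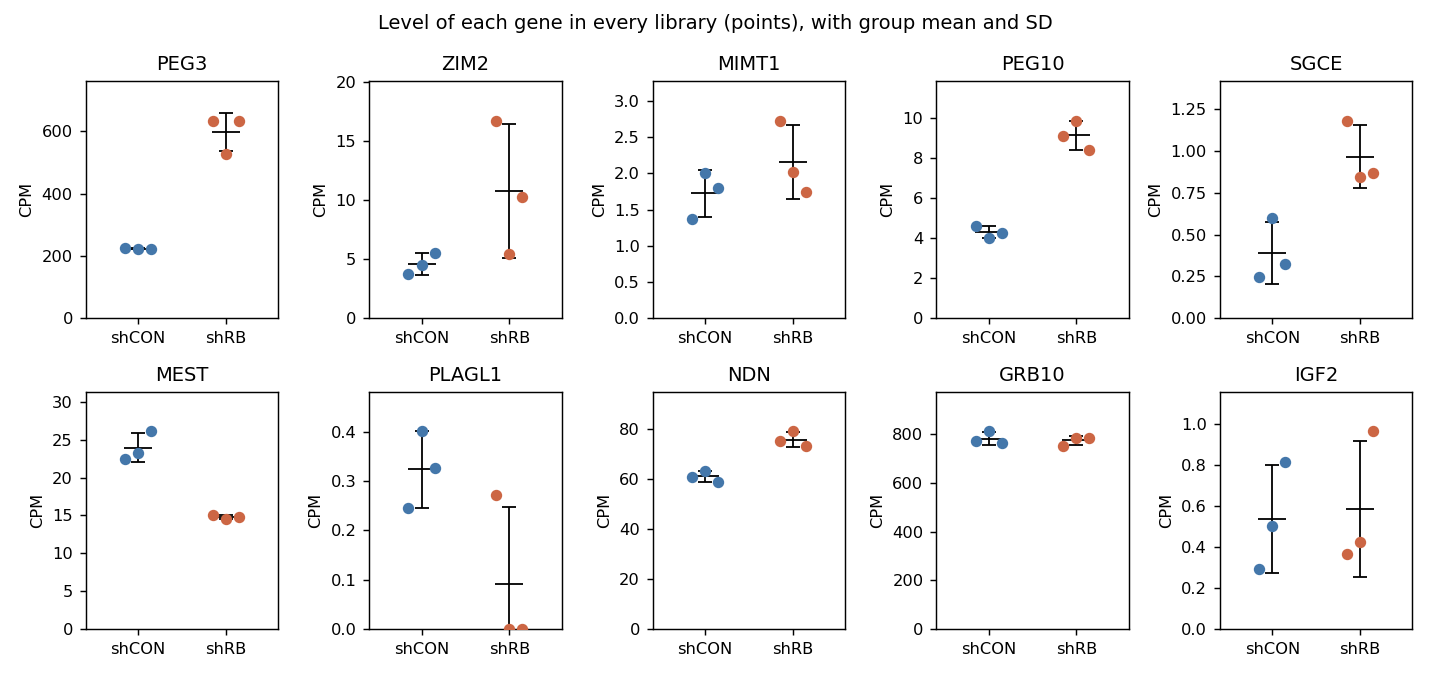
Level of each of the 10 genes in CPM (vertical axis, from 0, a separate scale for each gene) in the 3 shCON and 3 shRB libraries; points are libraries and bars are the mean and SD of a group. PEG3, PEG10, SGCE and NDN lie higher in every shRB library than in any shCON library, MEST lies lower, and the other 5 genes overlap between the groups.

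PEG3 (ENST00000326441, chromosome 19, minus strand) had 227, 222 and 222 CPM in the shCON libraries and 634, 527 and 635 CPM in the shRB libraries. The shCON libraries lay close together, every shRB library stood well above them, and shRB 2 was the lowest of its group. PEG3 averaged 224 ± 2.54 CPM in the control group (SD, n = 3, as for every mean here) and 599 ± 62.2 CPM with the RB hairpin, a ratio of 2.68. The log2 fold change was 1.42 ± 0.08 (SE), and with any single library left out it was between 1.38 and 1.51. PEG3 was the row with rank 75 of 11712 by log2 fold change and rank 410 by mean log2 CPM. The latter rank is not scaled to transcript length, which is 8759 bases for PEG3. The values rest on 8197 PEG3 counts in shCON and 18517 in shRB, summed within each group.

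ZIM2 (ENST00000593711, minus strand), a zinc finger gene of the same cluster that is also expressed from the paternal copy, was far less abundant. Its level was 3.73, 4.52 and 5.55 CPM in the shCON libraries and 16.7, 5.41 and 10.2 CPM in the shRB libraries. The shRB libraries were spread widely, and shRB 2 lay below the highest shCON library, so the groups overlapped. ZIM2 averaged 4.60 ± 0.91 CPM in shCON and 10.8 ± 5.69 CPM in shRB, a log2 fold change of 1.32 ± 0.32 (SE) that edgeR called higher. Without shRB 1 the log2 fold change was 0.85, and without shRB 2 it was 1.66, with the call kept in both. The ZIM2 counts were 76, 45 and 34 in shCON and 184, 51 and 106 in shRB.

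ZIM2 and PEG3 share 776 exon bases on the same strand in GENCODE 29, which are 36.8% of the ZIM2 transcript and 8.86% of the PEG3 transcript. Reads from those exons cannot be given to either gene with certainty, and the sources used here do not say how such reads were counted. An even spread of the PEG3 reads over its transcript would put 409, 196 and 121 reads on the shared exons in the shCON libraries and 617, 440 and 583 in the shRB libraries, which in every library is more than the whole ZIM2 count. The ZIM2 count was 1.65%, 2.03% and 2.50% of the PEG3 count in the shCON libraries and 2.64%, 1.03% and 1.61% in the shRB libraries. These shares overlapped between the groups, so the ZIM2 values can be read only together with those of PEG3. ZIM2 also shares 24 exon bases with ZIM2-AS1.

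MIMT1 (ENST00000599641, plus strand), the long noncoding RNA of the cluster, had 1.37, 2.01 and 1.80 CPM in the shCON libraries and 2.73, 2.01 and 1.74 CPM in the shRB libraries. shRB 1 lay above the other 5 libraries and shRB 2 level with the highest control, shCON 2, and the groups overlapped. The means were 1.73 ± 0.32 and 2.16 ± 0.51 CPM, and the log2 fold change of 0.41 ± 0.27 (SE) did not pass. At 11 to 30 MIMT1 counts per library, a difference of that size was not detectable. USP29, a deubiquitinase gene that starts next to PEG3 on the other strand and is imprinted in the same way, had 1 count in shRB 1 and 0 in the other 5 libraries.

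Around PEG3, the 10 tested genes on each side gave a different picture, most of them zinc finger genes. Leaving out ZIM2 and MIMT1, 14 of these 20 genes were called lower in shRB, 6 did not pass and 0 were called higher. Over all rows tested, 12.5% were called lower and 12.8% higher. The 20 genes had a median log2 fold change of −0.51 (range −1.03 to 0.49). At an unadjusted p under 0.05 the counts were 16 lower and 0 higher, and DESeq2 called 9 lower and 0 higher. Leaving out a control library changed this most: 7 neighbours were called lower when either shCON 1 or shCON 3 was left out, and 8 when shCON 2 was. With shCON 3 or shRB 2 left out, 1 neighbour was called higher, ZSCAN5A, named after its values were seen. As this window was part of the reason for choosing PEG3, its counts are also a description.

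The nearest tested genes before PEG3 in chromosome order were ZNF470, ZFP28 and AC005498.2. ZNF470, a zinc finger gene, averaged 17.5 ± 1.29 CPM in shCON and 12.4 ± 1.56 CPM in shRB, with a log2 fold change of −0.51 ± 0.13 (SE). The log2 fold changes of ZFP28, another zinc finger gene, and of AC005498.2 were −0.55 ± 0.15 and −1.03 ± 0.25. After PEG3 came the zinc finger genes ZNF264 (8.12 ± 0.84 CPM in shCON and 3.87 ± 1.81 CPM in shRB), ZNF460 and ZNF543, with log2 fold changes of −1.02 ± 0.25, −0.73 ± 0.25 and −0.66 ± 0.17. All 6 were called lower, on both sides of PEG3, while PEG3 was 2.68 times its shCON level. DESeq2 did not call AC005498.2 or ZNF460, and limma-voom did not call ZNF460. Without shCON 1, ZNF470, ZFP28, AC005498.2 and ZNF460 were not called, the last with a log2 fold change of −0.39. ZNF460 was also not called without shCON 3, shRB 1 or shRB 3, and ZNF543 without shCON 2, shCON 3 or shRB 1. ZNF264 kept its call in every setting tried.

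Wider windows on chromosome 19 include these 20 genes again, so their counts repeat part of the calls above. Farther out than the 20 genes, the calls after PEG3 were all lower, and those before it went in both directions. With MIMT1 left out, the 54 tested rows between PEG3 and the end of the chromosome had a median log2 fold change of −0.32, with 24 called lower and 0 higher (edgeR; 1 higher at an unadjusted p under 0.05, 0 by DESeq2 and 0 by limma-voom). With ZIM2 left out, the 40 tested rows before PEG3 had a median of −0.20, with 16 called lower and 4 higher, TTYH1, NLRP2, U2AF2 and EPN1. These 4, all outside the 20 genes, were named here after their values were seen, and NLRP2 is also on the list of imprinted genes below. Over all 865 tested rows of chromosome 19 the median was 0.01, with 86 called higher and 87 lower.

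**Figure D2:**
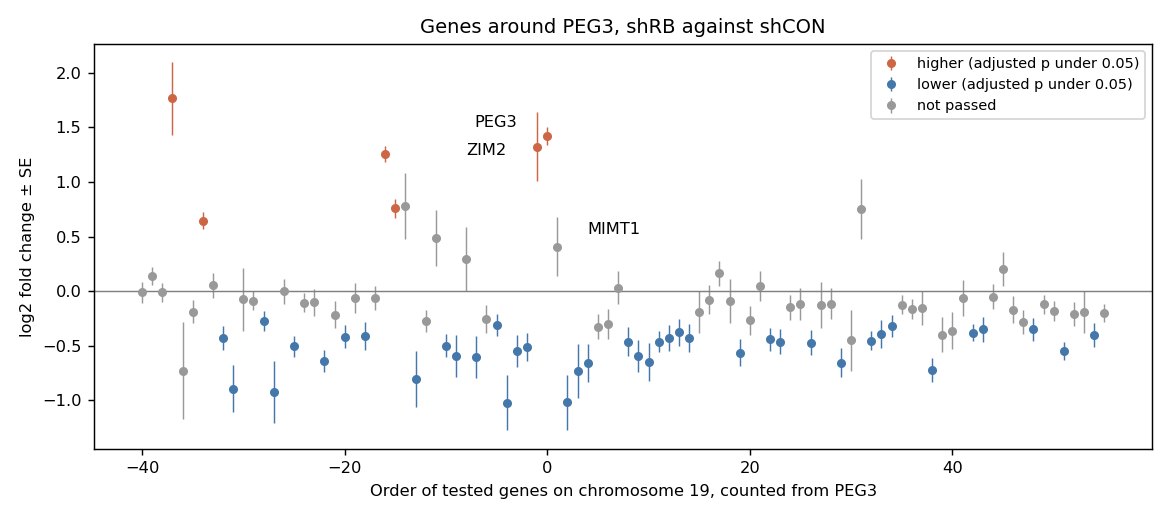
Log2 fold change (shRB minus shCON, vertical axis; bars are SE) of the tested genes around PEG3 on chromosome 19, placed by their order along the chromosome counted from PEG3 (horizontal axis, in genes). Most genes on both sides lie below 0. PEG3 at 1.42 and ZIM2 at 1.32 lie above 0, as do some genes farther before PEG3, among them TTYH1 at 1.77 and U2AF2 at 1.26.

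PEG10 and SGCE sit head to head on chromosome 7 and are both expressed from the paternal copy, starting from a shared imprinted CpG island. PEG10 derives from a retrotransposon and is needed for the placenta, and SGCE encodes the membrane protein epsilon-sarcoglycan. PEG10 (ENST00000482108, plus strand) had 4.61, 4.01 and 4.24 CPM in the shCON libraries and 9.10, 9.86 and 8.40 CPM in the shRB libraries. Every shRB library lay above every shCON library, as for 21.0% of all rows tested, and the shRB libraries were close to each other. The means were 4.29 ± 0.30 and 9.12 ± 0.73 CPM, a ratio of 2.13, and the log2 fold change was 1.06 ± 0.15 (SE), with a range of 1.01 to 1.15 when any single library was left out.

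SGCE (ENST00000445866, minus strand) had 5, 6 and 2 counts in the shCON libraries and 13, 8 and 9 counts in the shRB libraries, too few for the test. Scaled to depth, these were 0.25, 0.60 and 0.33 CPM against 1.18, 0.85 and 0.87 CPM, with no overlap between the groups. The ratio of the summed SGCE counts, adjusted for depth, was 2.74 with an exact 95% interval of 1.38 to 5.71 that covers counting error only. With no filter on low counts SGCE was also called higher, which made 5 such calls among the 10 genes. The ratio of PEG10 to SGCE counts was 18.8, 6.67 and 13.0 in the shCON libraries and 7.69, 11.6 and 9.67 in the shRB libraries. The ratios overlapped between the groups. The interval of each SGCE value is wide, so unequal changes of the 2 genes were not detectable at this depth.

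Of the 20 tested genes around PEG10, 1 was called lower and 0 higher in shRB, and the median log2 fold change was −0.06. At an unadjusted p under 0.05, 3 of them were lower and 0 higher, and DESeq2 and limma-voom each called 1 lower and 0 higher. PEG10 at 1.06 lay above all 20, whose highest value was 0.31. The gene called lower was DYNC1I1, a dynein subunit gene, at −1.65, named after its value was seen. Over all rows tested, 12.8% were called higher and 12.5% lower. The same shares stand beside the neighbour counts of MEST, NDN and GRB10 below.

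MEST (ENST00000341441, chromosome 7, plus strand), a paternally expressed gene for an enzyme-like protein with a hydrolase fold, was the gene of the 10 that was called lower. Its level was 22.4, 23.3 and 26.1 CPM in the shCON libraries and 15.1, 14.5 and 14.8 CPM in the shRB libraries. Every shRB library lay below every shCON library, as for 20.2% of all rows tested, and the shRB values were nearly equal. The means were 23.9 ± 1.94 and 14.8 ± 0.29 CPM, so shRB held 61.8% of the shCON level. The log2 fold change was −0.68 ± 0.11 (SE), and between −0.73 and −0.62 when any single library was left out. MEST shares 55 exon bases (2.25% of its transcript) with COPG2 on the opposite strand, and the strand setting of the counting is not given in the sources used here. The 20 tested genes around MEST had a median of −0.01, with SMKR1 and MKLN1-AS called higher and SMO, TSGA13 and CALD1 lower, all 5 named after their values were seen. SMO, the transducer of Hedgehog signals, had the lowest of these log2 fold changes at −1.73 ± 0.17.

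MEST is known for several start sites, of which a downstream start lies in the imprinted CpG island and an upstream start is not imprinted in all tissues. The transcript counted here begins at an upstream start, and its later exons are shared, so the counts do not say which start was used. Of 5 MEST starts in the RefSeq annotation of GRCh38.p14, the 250 bases before 1 upstream and 1 downstream start are shown, the former because the counted transcript begins there, with each CG, the dinucleotide that carries the methylation, in capitals.
MEST upstream start, chr7:130485925-130486174, plus strand: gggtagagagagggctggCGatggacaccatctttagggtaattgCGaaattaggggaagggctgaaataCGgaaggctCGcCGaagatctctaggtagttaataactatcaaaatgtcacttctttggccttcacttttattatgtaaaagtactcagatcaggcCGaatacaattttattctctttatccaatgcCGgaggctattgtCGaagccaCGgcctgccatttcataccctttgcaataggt
MEST downstream start, chr7:130491808-130492057, plus strand: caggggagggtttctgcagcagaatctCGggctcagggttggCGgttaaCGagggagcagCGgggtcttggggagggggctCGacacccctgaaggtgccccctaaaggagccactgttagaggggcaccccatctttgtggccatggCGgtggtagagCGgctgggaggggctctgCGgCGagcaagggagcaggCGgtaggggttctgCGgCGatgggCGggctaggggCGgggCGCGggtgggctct
The printed upstream window holds 9 CG and the downstream window 16 CG, but another upstream window (chr7:130486097-130486346) and another downstream window (chr7:130491835-130492084) hold 20 CG each. Of 35116 promoter windows of this length, 54.1% hold at least 9 and 40.96% at least 16, with a median of 11.

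NDN (ENST00000331837, chromosome 15, minus strand) encodes necdin, a protein of the MAGE family that binds E2F1 and restrains cell proliferation, and it is expressed from the paternal copy. It had 60.8, 63.4 and 58.9 CPM in the shCON libraries and 75.1, 79.2 and 73.1 CPM in the shRB libraries. The groups did not overlap, but the distance between them was small beside that of PEG3 and PEG10. The means were 61.1 ± 2.26 and 75.8 ± 3.11 CPM, a ratio of 1.24, and the log2 fold change was 0.31 ± 0.08 (SE). NDN was called higher with all 6 libraries and was not called without shCON 1 (0.31) or without shCON 3 (0.30). Of the 14 tested genes near NDN, 1 was called lower (NIPA1, named after its value was seen) and 0 higher, with a median of −0.10. At an unadjusted p under 0.05, 1 was higher and 3 were lower, DESeq2 called 0 in either direction, and limma-voom called 1 lower and 0 higher. Among other genes of the same imprinted region, SNRPN, which encodes a splicing protein, averaged 546 ± 13.9 and 554 ± 26.6 CPM. UBE3A, the ubiquitin ligase gene, and MKRN3, a zinc finger gene, had log2 fold changes of −0.16 ± 0.12 and −0.18 ± 0.14, and none of the 3 passed.

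The start of NDN, an intronless gene, is rich in CG, and the 250 bases before it are shown as a CG-dense example, again with CG in capitals.
NDN start, chr15:23687306-23687555, minus strand: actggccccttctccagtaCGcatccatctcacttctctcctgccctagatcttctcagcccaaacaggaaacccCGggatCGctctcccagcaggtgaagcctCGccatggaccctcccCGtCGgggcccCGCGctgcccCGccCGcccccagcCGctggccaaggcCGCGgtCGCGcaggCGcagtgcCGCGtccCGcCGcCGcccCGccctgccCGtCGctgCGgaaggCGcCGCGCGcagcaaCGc
This window holds 30 CG, a number reached by 12.4% of the 35116 windows. The letters TGCCGC, read by the imprint-keeping protein ZFP57 when methylated, occur once in the NDN window, counting both strands, in neither printed MEST window and once in the MEST window with 20 CG at chr7:130486097-130486346, against 12.8% of all windows with at least 1 match. None of the 3 printed windows holds the E2F letters TTTGGCGC, TTTCCCGC, TTTGCCGC or TTTCGCGC on either strand, which 2.79% of all windows hold, and TTTGCCGC contains TGCCGC. RefSeq promoter entries were matched for 4 of the 10 genes, MEST, PLAGL1, NDN and GRB10. Among the windows not printed, a PLAGL1 window (chr6:144008260-144008509) holds 2 TGCCGC and 1 E2F match, and a GRB10 window (chr7:50793454-50793703) holds 1 TGCCGC.

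GRB10, PLAGL1 and IGF2 bear on growth signalling. GRB10 (ENST00000335866, chromosome 7, minus strand) is an adaptor that damps the insulin and IGF receptors, and its imprinting differs between tissues. It was the most abundant of the 10 genes, with 771, 812 and 763 CPM in the shCON libraries and 752, 785 and 786 CPM in the shRB libraries. The groups overlapped, and the means of 782 ± 26.5 and 774 ± 19.7 CPM differed by less than the SD of either group. The GRB10 log2 fold change was −0.01 ± 0.07 (SE) and turned to 0.02 without shCON 2, to 0.01 without shRB 1 and to 0.0004 with a correction for GC content. Of the 20 tested genes around GRB10, ADCY1, TBRG4 and COBL were called higher and IGFBP3 lower, with a median of 0.02; these 4 were named after their values were seen.

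IGF2 (ENST00000381395, chromosome 11, minus strand), the fetal growth factor, had 6, 5 and 5 counts in the shCON libraries and 4, 4 and 10 in the shRB libraries. The IGF2 groups overlapped, with a depth-adjusted ratio of 1.33 and an exact 95% interval of 0.64 to 2.79. PLAGL1 (ENST00000444202, chromosome 6, minus strand), a zinc finger transcription factor that regulates other imprinted genes, had 5, 4 and 2 counts in shCON and 3, 0 and 0 in shRB. The PLAGL1 ratio was 0.32 with an interval of 0.058 to 1.22, which includes 1. Both genes were close to the limit of detection, and a difference between groups was not detectable.

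**Figure D3:**
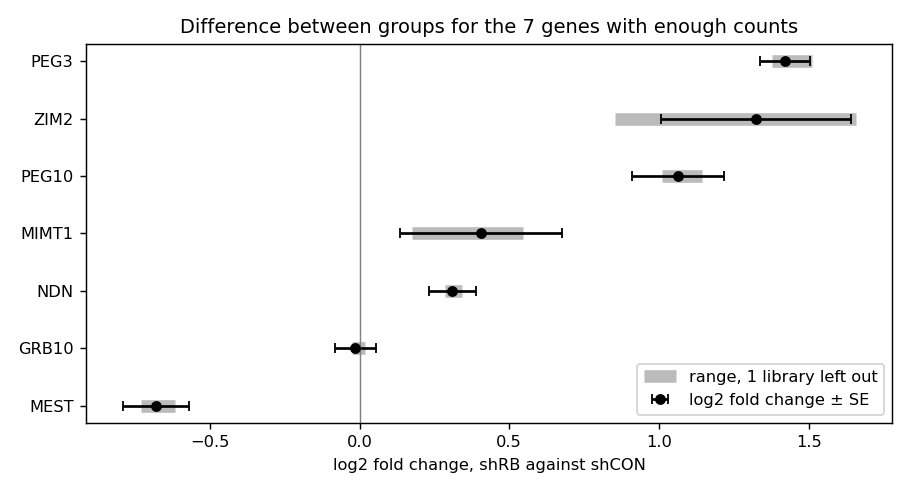
Log2 fold change (shRB minus shCON, horizontal axis; bars are SE, grey bands the range with 1 library left out) of the 7 tested genes, with 0 marked by a vertical line. PEG3, ZIM2, PEG10 and NDN lie to the right, from 1.42 to 0.31, and MEST lies to the left at −0.68.

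Levels were compared between the genes as CPM per kilobase of the annotated transcript. In shCON the order ran from GRB10 (155) through NDN (31.6), PEG3 (25.5), MEST (9.80), ZIM2 (2.18), MIMT1 (1.34), PEG10 (0.65), SGCE (0.23) and IGF2 (0.12) to PLAGL1 (0.10). In this order the ranges of SGCE and IGF2 overlapped, as did those of IGF2 and PLAGL1, and all other neighbours were apart in the 3 libraries. In shRB, PEG3 stood at 68.3 CPM per kilobase (60.1 to 72.5) and NDN at 39.2 (37.8 to 41.0), so PEG3 and NDN changed places and their ranges did not overlap. MEST at 6.06 and ZIM2 at 5.12 overlapped in shRB, and so did MIMT1 at 1.67 and PEG10 at 1.38, and IGF2 and PLAGL1.

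**Figure D4:**
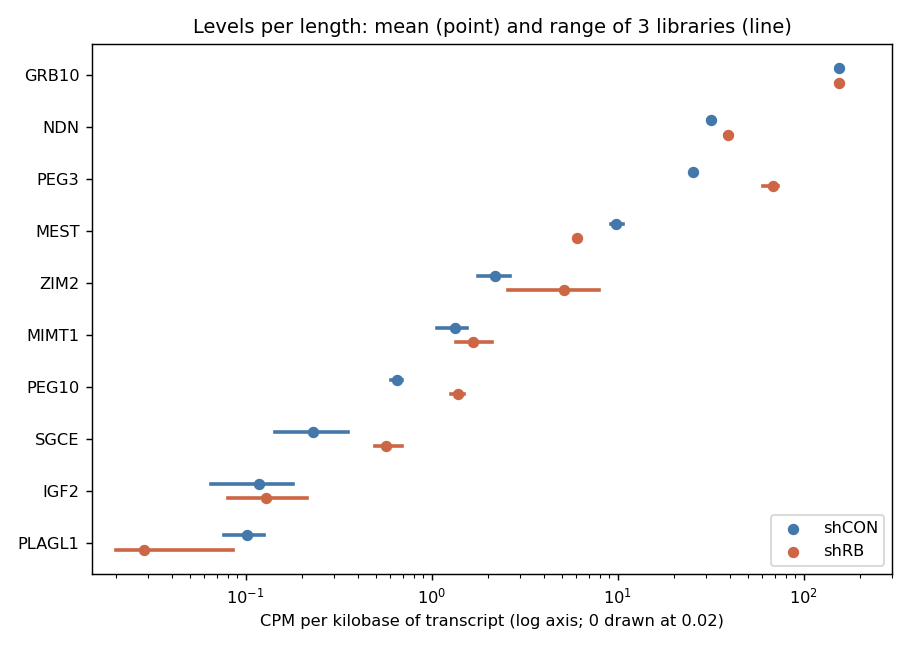
CPM per kilobase of transcript (log axis) for the 10 genes in shCON and shRB; points are group means, lines are the range of 3 libraries, and a value of 0 is drawn at the left end. The genes span from GRB10 near 155 to PLAGL1 near 0.10 in shCON, and in shRB PEG3 lies above NDN.

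Among all tested rows of at least 5 CPM, the 5 whose pattern over the 6 libraries was closest to that of PEG3 were KCNMA1, CCDC85A, TMSB4X, CDKN1A and TFPI. Closeness was the Euclidean distance between log2 CPM values centred on their mean, which were 0.24, 0.27, 0.29, 0.33 and 0.35 in that order. KCNMA1, a potassium channel gene, averaged 41.1 ± 0.77 CPM in shCON and 98.4 ± 3.67 CPM in shRB. CDKN1A, which encodes the cell cycle inhibitor p21, averaged 93.3 ± 2.78 and 242 ± 11.4 CPM. TMSB4X, which encodes an actin-binding thymosin, and TFPI, an inhibitor of blood clotting, had log2 fold changes of 1.43 ± 0.08 and 1.18 ± 0.07. PEG10 was the imprinted gene of the 10 closest to PEG3, at a distance of 0.58 with 47 rows closer. ZIM2 followed at 1.11 with 433 rows closer, and MEST was farthest at 2.58 with 11073 rows closer. These numbers of closer rows are over all tested rows of any level, with PEG3 itself included. ZIM2, which shares exons with PEG3, was thus not among its nearest rows. However, ZIM2 had 34 to 184 counts per library, against 1361 to 6970 for PEG3. The part of counting scatter in the ZIM2 distance was not tested.

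The spread of PEG3 and ZIM2 within shRB differed in size. In shRB 2, PEG3 lay 0.18 below its group mean on the log2 scale, and the 962 rows within 1 percentage point of its GC content had a median of −0.10 there. ZIM2 lay 0.83 below its group mean in shRB 2 and 0.77 above it in shRB 1, while the 713 rows of like GC content had medians of 0.03 and −0.01. The part of GC content in the group differences was not tested beyond the correction given in the closing section.

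The other imprinted genes showed no common direction. Of 55 further imprinted genes listed, 45 had a row, and 21 of these had at most 10 counts in every library, among them 9 at 0 such as DLK1 and MEG3. In the 23 that were tested, 3 were called higher, 2 lower and 18 did not pass, with a median log2 fold change of −0.01, beside 12.8% called higher and 12.5% lower over all rows. PHLDA2, a maternally expressed restraint on placental growth on chromosome 11, rose from 31.7, 31.3 and 40.5 CPM in the shCON libraries to 76.1, 90.7 and 78.2 CPM in the shRB libraries. The PHLDA2 groups did not overlap, and its log2 fold change of 1.26 ± 0.11 (SE; edgeR, adjusted p = 3.325e-06) lay between those of PEG10 and PEG3.

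CDKN1C, which encodes the cell cycle inhibitor p57 in the same chromosome 11 cluster, rose from 6.76 ± 0.30 to 10.2 ± 0.79 CPM (log2 fold change 0.61 ± 0.14, edgeR adjusted p = 0.00574). SLC22A18, a transporter gene next to PHLDA2 and also maternally expressed, fell from 31.2 ± 2.03 to 24.1 ± 2.07 CPM (−0.36 ± 0.11, edgeR adjusted p = 0.0236). Genes of 1 cluster thus differed in direction. The SLC22A18 call was lost without shCON 2, shCON 3, shRB 1 or shRB 3 (adjusted p up to 0.106). KCNQ1, the channel gene of that cluster, and KCNQ1OT1, its antisense RNA, did not pass, at 0.30 ± 0.15 and −0.65 ± 0.32 (edgeR adjusted p = 0.167 and 0.156). Reads of KCNQ1 and KCNQ1OT1 cannot be told apart without strand where their exons overlap.

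NLRP2, a gene of the NLR family on chromosome 19 that is reported as imprinted in some tissues, rose from 66.6 ± 3.81 to 104 ± 3.48 CPM (0.65 ± 0.08, edgeR adjusted p = 6.077e-05). DIO3, the deiodinase that inactivates thyroid hormone, fell from 2.11 ± 0.20 to 1.14 ± 0.10 CPM (−0.86 ± 0.26, edgeR adjusted p = 0.0272). The DIO3 call was lost in DESeq2 (adjusted p = 0.193) and without any single library. The most abundant genes of the list that did not pass were GNAS, which encodes a G protein subunit, at 2125 ± 92.0 and 1895 ± 36.7 CPM (edgeR adjusted p = 0.111), and DDC, an amine-producing decarboxylase, at 650.3 ± 43.8 and 692 ± 25.4 CPM (adjusted p = 0.411). Without shRB 2, GNAS passed with a log2 fold change of −0.17 (adjusted p = 0.0344).

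**Figure D5:**
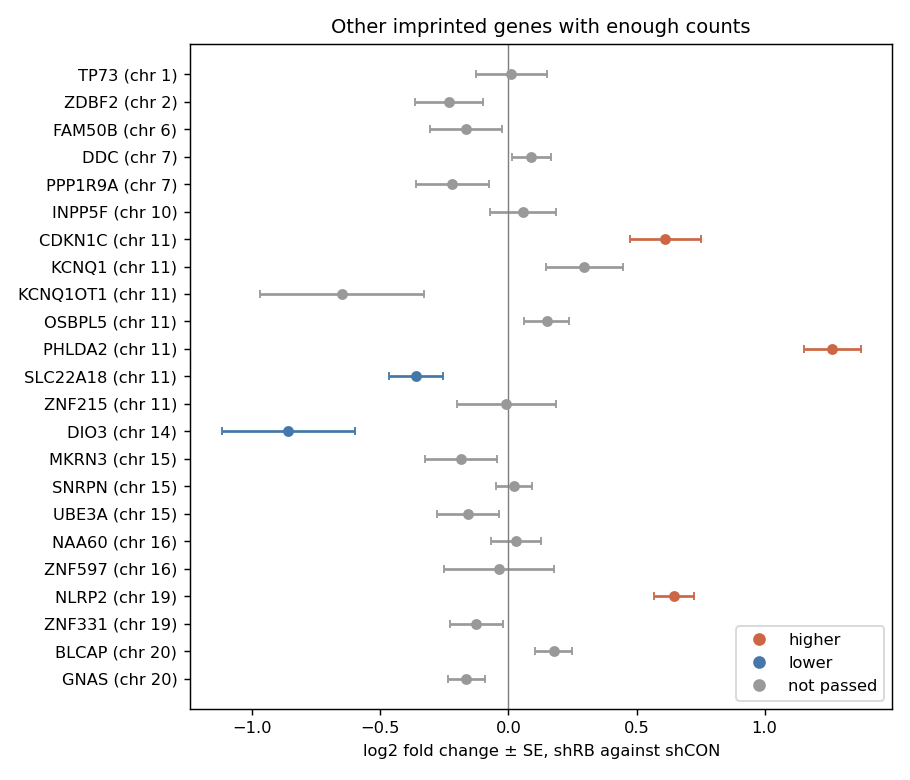
Log2 fold change (shRB minus shCON; bars are SE) of the 23 tested imprinted genes outside the 10, by gene, with those past the threshold marked. PHLDA2, NLRP2 and CDKN1C lie above 0 and SLC22A18 and DIO3 below, and the other 18 did not pass.

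Genes that set or keep imprints include the DNA methyltransferases, the TRIM28 complex that protects methylated control regions, and chromatin proteins. Of 21 such genes listed, 18 had a row and 16 were tested. Among the tested genes, 2 were called higher, 0 lower and 14 did not pass, beside 12.8% called higher and 12.5% lower over all rows. Their median log2 fold change was 0.01. At an unadjusted p under 0.05 the counts were 3 higher and 2 lower, DESeq2 called 1 higher and 0 lower, and limma-voom 2 higher and 0 lower. CBX5, which encodes the heterochromatin protein HP1 alpha, rose from 254 ± 6.54 to 347 ± 20.3 CPM (0.45 ± 0.07, edgeR adjusted p = 4.983e-04). DNMT3A, a methyltransferase that lays down new DNA methylation, rose from 13.0 ± 0.87 to 17.1 ± 0.14 CPM (0.39 ± 0.12, edgeR adjusted p = 0.0254), a call lost in DESeq2 (0.0765) and without each library but shRB 2. TRIM28, which recruits silencing factors to imprinted regions, averaged 610.0 ± 28.8 and 538 ± 79.2 CPM and did not pass (−0.18 ± 0.10, edgeR adjusted p = 0.181). Without shRB 2 it passed as lower (−0.30, adjusted p = 1.749e-04), and this list then had 4 genes called higher and 1 lower. EHMT2, a histone methyltransferase, averaged 94.2 and 106 CPM and did not pass (adjusted p = 0.217).

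The pathway on which IGF2 and GRB10 act was read from 22 genes, of which 21 had a row and 11 were tested. Of these, 1 was called higher, 2 lower and 8 did not pass, with a median of −0.09. Over all rows, 12.8% were called higher and 12.5% lower. IGF1R, the receptor through which IGF2 signals, fell from 4.54 ± 0.91 to 2.17 ± 0.22 CPM (−1.13 ± 0.22, edgeR adjusted p = 0.00196). IGFBP3, a protein that binds IGFs outside the cell, fell from 11.5 ± 0.21 to 7.13 ± 0.53 CPM (−0.69 ± 0.13, edgeR adjusted p = 0.00217). SHC1, an adaptor below the receptors, rose from 104.8 ± 4.68 to 123 ± 6.89 CPM (0.23 ± 0.08, edgeR adjusted p = 0.0396), a call lost in DESeq2 (0.0501) and without each library but shRB 2. GRB2, a further adaptor, at 268 and 241 CPM, and IGFBP2, another binding protein, at 156 and 146 CPM, did not pass (edgeR adjusted p = 0.121 and 0.487). Side by side, the damper GRB10 was abundant in both groups, the ligand IGF2 had at most 10 counts in any library, and the receptor IGF1R was lower in shRB. The insulin receptor gene INSR, named after its values were seen, was more abundant than IGF1R. It averaged 36.3 ± 2.64 CPM in shCON and 33.9 ± 3.85 CPM in shRB and did not pass (edgeR adjusted p = 0.574).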

How the data were processed

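RNA from 6 LNCaP libraries (TruSeq RNA kit v2, per the labels' protocols) was measured. The authors deposited raw counts per Ensembl transcript ID in 1 table. STAR, HOMER, edgeR and hg19 are named, without roles or versions, in the submitters' processing notes; the counting strand, annotation and treatment of shared exons have no statement in the sources used. Of 22279 IDs, 22182 matched GENCODE 29 (GRCh38), which served for names, chromosome order, length, GC content and exon overlap but no coordinates; the 97 others held 0.377% of counts. The members and lists were chosen with earlier results of these data known. Counts were tested with edgeR 4.0.16 in R 4.3.3 (quasi-likelihood, TMM, filterByExpr with a minimum count of 10 and total of 15, group as the only term, Benjamini-Hochberg threshold of 0.05). CPM used TMM-scaled totals, and SE is the log2 fold change divided by the root of F. The script was tested on simulated data. Intervals of summed counts are exact binomial (95%) and cover counting error only.

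Genes named were RB1, the 10 members, up to 8 passing genes of each list with the smallest p and the 2 most abundant that did not pass, the 3 tested genes nearest PEG3 on each side, and the 5 rows of at least 5 CPM closest to PEG3 (symbols of LOC, LINC and small RNA type left out); genes outside this rule are members' cluster partners or are said to be named after their values were seen. Alternatives were DESeq2 1.42.0, limma-voom (limma 3.58.1), other scalings and filters, a replicate block, each library left out and, chosen after seeing the data, a GC trend as offset. Replicates of a group differed by more than counting noise. The chi-square per degree of freedom was 10.75 and 10.87 for the pairs with shRB 2 and 2.17 to 5.61 for the other pairs. All 6 libraries were kept. Depth was 6115310 to 20091488 counts per library. RefSeq promoter windows (GRCh38.p14) are the 250 bases before a start.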

Additional observations from a re-analysis of the deposited data

How the results depend on the processing

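Of 520 values of 35 named genes under the alternatives, 467 kept their direction and their side of the threshold, 39 lost the call, 11 gained it and 3 changed sign. The 3 were values of GRB10, which ranged from −0.0248 to 0.0174 without a single library (0.0081 without shRB 1) and was 0.0004 with the GC offset. Among the 10 genes, 3 to 5 were called higher and 1 lower in every setting. Without a single library, all rows called higher ranged from 863 to 2074 and lower from 912 to 1956; other imprinted genes lower from 0 to 2; maintenance genes higher from 1 to 4 and lower from 0 to 1; IGF and insulin genes higher from 0 to 1; PEG3 neighbours higher from 0 to 1 and lower from 7 to 13. With the GC offset, 2717 rows were called higher, 5 maintenance genes higher and 2 lower, and 4 IGF and insulin genes lower. DESeq2 called 1 other imprinted gene lower, 1 maintenance gene higher, 0 IGF and insulin genes higher and 9 PEG3 neighbours lower. Upper quartile scaling called 0 IGF and insulin genes higher, the minimum of 5 CPM left 1 other imprinted gene and 1 IGF and insulin gene lower, and no filter gave 1 maintenance gene lower. The cause was not tested.

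With the replicate block, 2202 rows were called higher and 2294 lower, with 4 other imprinted genes lower, 5 maintenance genes higher and 2 lower, and 4 IGF and insulin genes lower; the PEG3 log2 fold change was 1.41. Same-numbered libraries correlated at 0.24, 0.35 and −0.00032 in their deviations from the group means, and shRB 3 correlated best with shCON 1 (0.27), so the numbers were not taken to pair the libraries. Counts of 0 to 30 per library limit SGCE, PLAGL1, IGF2 and MIMT1.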
